A study of Mus musculus with 12 samples.

Results

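The interferon-inducible GTPases are 2 related families of large and mid-sized GTP-binding proteins that cells make in response to interferons. The 10 genes, of 54532 listed in the deposited table, were taken by a rule that reads their symbols alone. They comprise the guanylate-binding proteins Gbp2, Gbp3, Gbp5, Gbp6, Gbp7 and Gbp9, and the immunity-related GTPases Igtp, Irgm1, Irgm2 and Ifi47. Each symbol had 1 row. RNA with a polyA tail was sequenced from whole hippocampi on postnatal day 15, in the inbred mouse strain C57BL/6J. The series asks how systemic inflammation early in life alters the brain's reaction to a later inflammatory insult. Each pup received an injection under the skin on day 3 and one into the abdomen on day 14, followed after 24 h by collection of the tissue. Each injection was saline or lipopolysaccharide at 5 mg/kg (LPS, the outer membrane component of Gram-negative bacteria that triggers innate immunity). LL pups had LPS on both days, SL pups saline and then LPS, LS pups LPS and then saline, and SS pups saline on both days. There were 3 animals in each of the 4 groups, all without genetic modification in the labels, and their sex is not given there.

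Interferons bind receptors that act through Janus kinases, STAT proteins and interferon regulatory factors on 2 promoter motifs, the GAS element and the interferon-stimulated response element (ISRE). Guanylate-binding proteins assemble on pathogen vacuoles and on the LPS of bacteria in the cytosol, where they assist the activation of inflammatory caspases. Among the immunity-related GTPases, Irgm1, Irgm2 and Igtp sit on the cell's own membranes and restrain the effector members, of which Ifi47 is one. In the brain their transcripts are scarce at rest and are induced during infection or inflammation.

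In mm10 coordinates of the deposited table, Gbp2 (chr3:142620602-142638008), Gbp3 (chr3:142560026-142573209), Gbp5 (chr3:142493978-142522344) and Gbp7 (chr3:142530342-142550149) lie in 1 cluster on the plus strand. Gbp6 (chr5:105270702-105293698) and Gbp9 (chr5:105077630-105139539) lie in another on the minus strand. The immunity-related GTPases are on chromosome 11, with Igtp (chr11:58199556-58207591), Irgm2 (chr11:58199618-58222782) and Ifi47 (chr11:49076587-49096974) on the plus strand and Irgm1 (chr11:48861968-48871683) on the minus strand. All coordinates span whole genes, exons and introns together.

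Promoter windows of 300 bases, from 250 before to 50 after the annotated start, were found in RefSeq (GRCm38.p6) for 8 of the 10 genes, not for Gbp6 and Gbp9. The ISRE core was searched on both strands as GAAA, any 2 bases and GAAA again (TTTC on the other strand), and the GAS core as TTC and GAA around any 3 bases. The ISRE core was present in 7 of the 8 genes and the GAS core in 4. Gbp3 had a further window, from another annotated start, with neither core. Over all 32851 promoter windows in the reference, 3.44% held the ISRE core, 8.30% the GAS core and 0.454% both. Counted by gene, 3.99% of 27025 genes held the ISRE core in some window and 9.55% the GAS core. The 4 windows below show the arrangements, 5′ to 3′ on the gene's strand, with matches in capitals. Igtp and Irgm2 show a paired GAS and ISRE, Gbp2 a lone ISRE, and Gbp5 a distant ISRE with 2 GAS cores.
Igtp: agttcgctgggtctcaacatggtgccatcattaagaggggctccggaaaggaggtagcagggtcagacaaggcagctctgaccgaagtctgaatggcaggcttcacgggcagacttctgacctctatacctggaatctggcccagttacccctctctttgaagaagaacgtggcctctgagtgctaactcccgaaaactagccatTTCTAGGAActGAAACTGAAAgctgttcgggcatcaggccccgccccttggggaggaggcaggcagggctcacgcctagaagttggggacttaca
Irgm2: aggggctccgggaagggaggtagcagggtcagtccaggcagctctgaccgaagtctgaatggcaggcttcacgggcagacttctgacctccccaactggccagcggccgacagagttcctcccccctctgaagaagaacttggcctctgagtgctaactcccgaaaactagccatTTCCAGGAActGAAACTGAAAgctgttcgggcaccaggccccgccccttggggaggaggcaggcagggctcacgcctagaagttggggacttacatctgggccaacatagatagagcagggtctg
Gbp2: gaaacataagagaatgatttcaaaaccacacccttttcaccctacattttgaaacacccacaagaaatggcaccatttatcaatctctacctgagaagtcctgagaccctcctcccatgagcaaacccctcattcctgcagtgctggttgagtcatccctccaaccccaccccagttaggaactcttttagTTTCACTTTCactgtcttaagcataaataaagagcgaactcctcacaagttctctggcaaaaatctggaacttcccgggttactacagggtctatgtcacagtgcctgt
Gbp5: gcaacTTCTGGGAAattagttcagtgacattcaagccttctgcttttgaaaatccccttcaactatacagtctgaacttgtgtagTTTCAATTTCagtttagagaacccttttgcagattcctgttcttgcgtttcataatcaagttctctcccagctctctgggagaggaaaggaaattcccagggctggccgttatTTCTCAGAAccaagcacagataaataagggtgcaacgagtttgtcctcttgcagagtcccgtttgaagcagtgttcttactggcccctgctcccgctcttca

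These windows span chr11:58199306-58199605 (Igtp), chr11:58214727-58215026 (Irgm2), chr3:142620413-142620712 (Gbp2) and chr3:142496684-142496983 (Gbp5), all on the plus strand. Igtp and Irgm2 share 244 of 265 aligned bases, or 92.1%. In both, the GAS core starts 11 bases ahead of the ISRE core, and this spacing was looked for after it was seen in these genes. Only 5 of the 32851 windows, or 0.0152%, hold a GAS core and an ISRE core at this distance and in this order, read on either strand. Those 5 are Igtp, Irgm2 and 3 further immunity-related GTPases, Tgtp1, Tgtp2 and Gm12185. Gbp3 and Irgm1 each carry a pair of overlapping ISRE cores, at -45 to -36 and -39 to -30 in Gbp3 and at -30 to -21 and -24 to -15 in Irgm1. Gbp7 has an ISRE core at -53 to -44 and GAS cores that start at -106 and -87. No match to these letters lies in the Ifi47 window. A match is a run of letters and not a measured binding site.

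**Figure D1:**
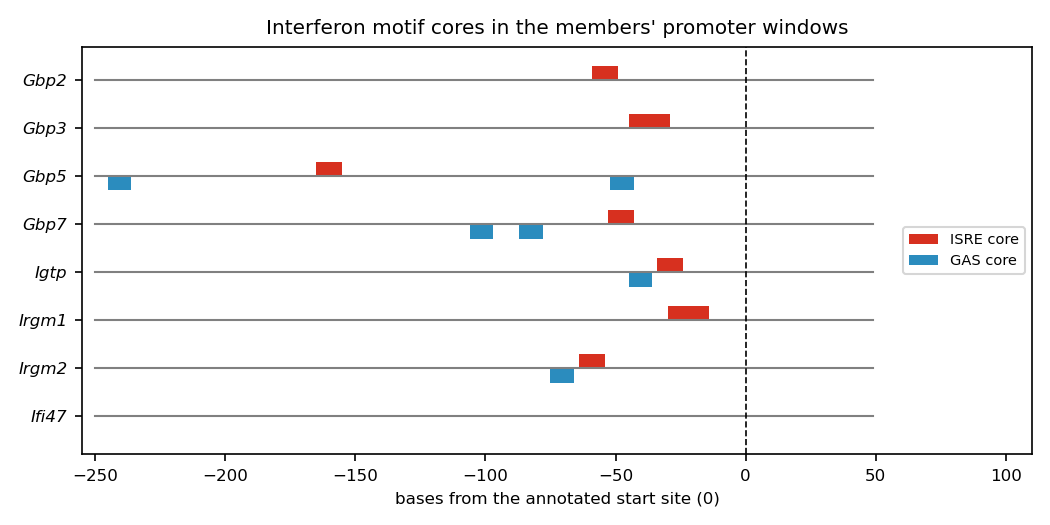
Position of the ISRE core (red) and the GAS core (blue) in the 300-base promoter windows of 8 genes, in bases from the annotated start site (dashed line at 0). The ISRE cores of Gbp2, Gbp3, Gbp7, Igtp, Irgm1 and Irgm2 lie between -64 and -15, that of Gbp5 at -165 to -156, and Ifi47 has none. The further window of Gbp3, with neither core, is not drawn.

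The libraries held 16979666 to 24105022 fragments in listed genes, lowest in SS and highest in LL, and 1 fragment in a gene of 1 kb was worth 0.0402 to 0.0587 FPKM (fragments per kilobase, scaled to library size). Markers of hippocampal neurons summed to 1308 to 1354 FPKM in LL, 1300 to 1423 in SL, 1278 to 1426 in LS and 1319 to 1400 in SS, as the tissue label implies. Other cell types moved between groups. Microglial markers summed to 227 to 231 FPKM in LL, 141 to 184 in SL, 143 to 167 in LS and 113 to 121 in SS. Single microglial markers did not all follow this sum, as given below. Endothelial markers summed to 90.9 to 107 FPKM in LL, 79.8 to 103 in SL, 83.5 to 86.9 in LS and 76.4 to 80.7 in SS. Neutrophil markers summed to 3.57 to 5.72 FPKM in LL, 115 to 235 in SL, 1.45 to 1.99 in LS and 0.893 to 1.70 in SS. Of these, Ly6g was at 0 in LL, Ly6g and Retnlg in LS, and Mmp8 and Cxcr2 in SS. Monocyte markers, 6 genes, summed to 0.780 to 1.55 FPKM in LL, 5.06 to 9.55 in SL, 0.111 to 0.222 in LS and 0.283 to 0.408 in SS, with Ly6c2 at 0 in SS. Astrocyte markers summed to 755 to 830 FPKM in LL, 1124 to 1282 in SL, 753 to 784 in LS and 755 to 798 in SS. Choroid plexus markers summed to 2254 to 3201 FPKM in LL, 626 to 881 in SL, 1134, 54.1 and 20.6 in LS replicates 1, 2 and 3, and 2178 to 2561 in SS. In bulk tissue, fewer cells of a type and less RNA per cell cannot be told apart.

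All 10 genes were at their highest in SL hippocampi, and in each the LL values lay between the SL values and those of the groups given saline on day 14. Their summed level was 13.1, 18.3 and 17.2 FPKM in LL, 62.5, 60.8 and 44.9 in SL, 7.15, 6.39 and 5.45 in LS, and 6.90, 5.81 and 6.04 in SS. The LL sums lie below every SL sum and above every LS and SS sum, while LS and SS overlap.

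Among the guanylate-binding proteins, Gbp2, which coats the vacuole of Toxoplasma in mouse cells, reached the highest level of the 10. It stood at 1.52, 2.001 and 2.30 FPKM in LL, 18.9, 15.9 and 10.7 in SL, 1.08, 0.829 and 0.647 in LS, and 0.747, 0.438 and 0.603 in SS. The LL values lie far below SL, and the LS and SS values overlap. Gbp5, which promotes assembly of the NLRP3 inflammasome, stood at 0.424, 0.752 and 0.587 FPKM in LL, 7.87, 6.92 and 5.10 in SL, 0.237, 0.307 and 0.335 in LS, and 0.204, 0.218 and 0.286 in SS. All LL values exceeded all LS and SS values by a narrow margin, far under SL. Gbp6 was the scarcest, at 0.250, 0.234 and 0.270 FPKM in LL, 2.06, 1.71 and 1.49 in SL, 0.0743, 0.0751 and 0.109 in LS, and 0.0888, 0.117 and 0.0273 in SS. Its values rest on 31 to 38 fragments a library in LL, 160 to 260 in SL, 9 to 12 in LS and 3 to 12 in SS. Gbp6 passed the filter on low values through the SL libraries alone, so that it had to be high in SL to be tested. Gbp5 reached the 0.5 FPKM of the filter in 3 SL, 2 LL, 0 LS and 0 SS libraries, so it too needed SL libraries to be tested. Ifi47 reached it in 3 SL, 3 LL, 0 LS and 0 SS libraries.

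Gbp3, another gene of the chromosome 3 cluster, had 2.48, 4.15 and 3.28 FPKM in LL, 10.7, 10.3 and 7.49 in SL, 1.25, 1.05 and 0.931 in LS, and 1.39, 1.24 and 0.978 in SS. It was the most abundant of the 10 in LL, LS and SS. Gbp7, which helps assemble the phagocyte oxidase, had 1.46, 2.21 and 1.82 FPKM in LL, 3.22, 3.99 and 3.15 in SL, 0.981, 1.07 and 0.919 in LS, and 0.701, 0.650 and 0.810 in SS. It was the one gene of the 10 in which every LS value exceeded every SS value, an arrangement found in 9.36% of tested genes. Gbp9 had 1.36, 1.73 and 1.51 FPKM in LL, 2.58, 2.77 and 2.26 in SL, 0.456, 0.576 and 0.556 in LS, and 0.602, 0.403 and 0.618 in SS. Its LL values came nearest to SL.

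Among the immunity-related GTPases, Igtp (also called Irgm3) had 1.81, 2.27 and 2.55 FPKM in LL, 6.07, 7.18 and 4.50 in SL, 0.827, 0.688 and 0.537 in LS, and 0.784, 0.602 and 0.669 in SS. Irgm1, whose loss in mice impairs control of mycobacteria and blood cell homeostasis, had 1.63, 2.04 and 2.20 FPKM in LL, 5.54, 5.12 and 4.48 in SL, 1.02, 0.915 and 0.860 in LS, and 1.05, 1.12 and 0.867 in SS. In both genes LL lay clear of the other groups and LS overlapped SS. Irgm2, which restrains caspase-11 responses to LPS in mouse macrophages, had 1.504, 1.998 and 1.84 FPKM in LL, 3.40, 4.08 and 3.17 in SL, 0.986, 0.673 and 0.471 in LS, and 1.24, 0.863 and 0.924 in SS. Its LL and SS values were the closest of the 4 genes. Ifi47, an effector GTPase, had 0.699, 0.909 and 0.821 FPKM in LL, 2.23, 2.85 and 2.49 in SL, 0.239, 0.201 and 0.0878 in LS, and 0.0950, 0.164 and 0.263 in SS. Its LS and SS values rest on 4 to 12 fragments a library.

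**Figure D2:**
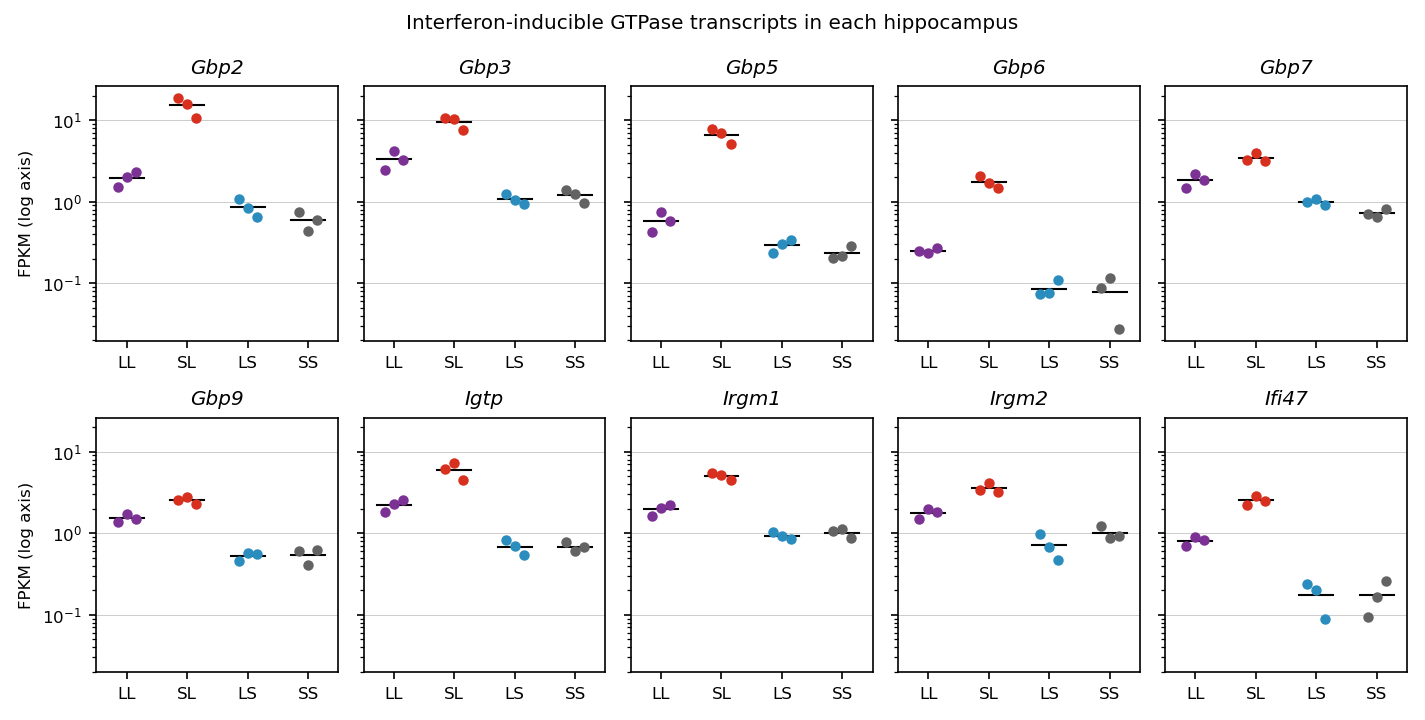
FPKM on a log axis in each of the 12 hippocampi for the 10 genes, 1 panel a gene, with points for animals and a line at each group's mean. SL is highest in every panel, LL lies between SL and the groups given saline on day 14, and LS overlaps SS in 9 panels, all but Gbp7.

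Order within the family differed between groups. In SL the order was Gbp2, Gbp3, Gbp5, Igtp, Irgm1, Irgm2, Gbp7, Gbp9, Ifi47 and Gbp6. Neighbours whose ranges overlapped there were Gbp3 and Gbp5, Gbp5 and Igtp, Igtp and Irgm1, Irgm2 and Gbp7, and Gbp9 and Ifi47. In LL the order was Gbp3, Igtp, Irgm1, Gbp2, Gbp7, Irgm2, Gbp9, Ifi47, Gbp5 and Gbp6, and each of the first 7 overlapped its neighbour. Gbp5 thus stood near the top in SL and near the bottom in LL. In SS the order was Gbp3, Irgm1, Irgm2, Gbp7, Igtp, Gbp2, Gbp9, Gbp5, Ifi47 and Gbp6. These are levels per kilobase, and no test was made of the order.

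Single levels carry an uncertainty from near-identical copies, since the sources used here do not say how fragments shared between genes were counted. For Gbp6, 64.5% of its 100-base stretches also occur in transcripts of another gene, 59.0% in Gm43302, which is listed at 0 in all 12 libraries. The share was 10.01% for Gbp7 and 5.16% for Igtp, 3.01% for Irgm2 and 1.65% or less for the others. Igtp and Irgm2 also overlap by 162 exon bases on the same strand. Ifi47 shares 111 exon bases with Olfr56 on the same strand and 106 with Gm12188 on the opposite strand, and strand use in counting is likewise not given.

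SL was set against SS to measure what LPS on day 14 does in pups with no earlier LPS. All 10 genes rose, 24 h after the injection, by 3.51-fold to 28.1-fold in mean FPKM. Gbp5, Gbp2 and Gbp6 rose most, and Irgm2, Gbp9 and Gbp7 least. Of the 17687 tested genes 7.06% rose in the same test, and the median log2 fold change was 2.06 over the 10 genes against -0.0036 over all tested. Gbp6 and Gbp5 could be tested only because of their SL libraries, as given above, which limits what their calls add. Ifi47 passed the filter only through SL and LL libraries, which limits its call in the same way. The tests used log2(FPKM + 0.5), and the added 0.5 makes the log2 fold change of a scarce transcript smaller than its ratio of FPKM.

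Gbp2 averaged 15.2 ± 4.14 FPKM in SL and 0.596 ± 0.155 in SS (SD, n = 3 each), and its log2 difference was 3.81 ± 0.20 (SE) with a limma adjusted p of 2.94e-07. Gbp5 averaged 6.63 ± 1.41 FPKM in SL and 0.236 ± 0.0437 in SS, and its log2 difference was 3.26 ± 0.16 (adjusted p 1.45e-07). The immunity-related GTPases rose by 2.42 ± 0.16 for Igtp, 2.17 ± 0.15 for Ifi47, 1.88 ± 0.11 for Irgm1 and 1.43 ± 0.16 for Irgm2 on the log2 scale. Every SL value exceeded every SS value in all 10 genes, an arrangement found in 13.8% of tested genes. Neutrophil, monocyte and astrocyte marker sums were higher in SL than in SS as given above, and their part in these changes was not tested. Single astrocyte markers were mixed, with 4 of 9 called higher in SL and 3 called lower. Single microglial markers were mixed as well, with 5 of 10 called higher in SL and 3 called lower. With the choroid plexus marker level as a covariate all 10 were called. Without SL replicate 1, 2 or 3 the count was 9, because Gbp6 then no longer passed the filter.

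LL was set against LS to measure the effect of the same day 14 injection in pups that had met LPS on day 3, and no animal is shared with the comparison above. Of the 10 genes, 7 rose, where 2.40% of all tested genes rose. The 7 include Ifi47, which passed the filter only through SL and LL libraries. On the log2 scale Gbp3 rose by 1.25 ± 0.17 (adjusted p 0.00319) and Igtp by 1.19 ± 0.16 (adjusted p 0.00288). The ratio of mean FPKM in LL to LS was 4.61 in Ifi47, 3.23 in Igtp and 3.06 in Gbp3, so the order of the genes depends on the pseudocount. Gbp9 rose by 0.98 ± 0.12, Ifi47 by 0.96 ± 0.15, Irgm2 by 0.93 ± 0.16, Irgm1 by 0.77 ± 0.11 and Gbp7 by 0.63 ± 0.13. The 3 that did not pass the test include the pair with the largest SL responses. Gbp2 was at 0.85 ± 0.20 (adjusted p 0.0551), Gbp5 at 0.45 ± 0.16 (adjusted p 0.228) and Gbp6 at 0.36 ± 0.14 (adjusted p 0.287). Every LL value exceeded every LS value in all 10, including these 3, against 11.0% of tested genes. The median log2 fold change of the 10 was 0.89, and -0.0046 over all tested.

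LS replicates 2 and 3 stood apart in choroid plexus markers, as given above. With the choroid plexus marker level as a covariate none of the 10 was called, at log2 fold changes of 0.33 to 1.09, and without LS replicates 2 and 3 together 1 was called (Gbp9). With 1 LS library left the SE was larger and the log2 fold changes were 1.10 ± 0.26 in Gbp3, 1.02 ± 0.23 in Igtp, 0.68 ± 0.17 in Irgm1, 0.64 ± 0.19 in Gbp7, 0.82 ± 0.20 in Ifi47 and 0.61 ± 0.19 in Irgm2. The marker level is itself unequal between LL and LS, and the covariate takes out any group difference that runs along with it. The calls of Gbp7 (without LL replicate 2 or 3, or any LS replicate) and Irgm2 (without LL replicate 2 or 3, or LS replicate 2) ended when 1 library was left out.

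Whether the day 14 response depended on the first injection was tested by the interaction, the LL minus LS difference less the SL minus SS difference. It was negative in all 10 genes and passed the test in 8, where 3.19% of tested genes had a called negative interaction. Gbp2 was at -2.96 ± 0.29 (adjusted p 0.000154) and Gbp5 at -2.81 ± 0.23 (adjusted p 5.17e-05). Gbp6, at -1.60 ± 0.20, is given as a value because it had to be high in SL to be tested. The 8 include Gbp6, and also Gbp5, which needed SL libraries to pass the filter. Gbp3 was at -1.29, Igtp at -1.22, Ifi47 at -1.21, Irgm1 at -1.10 and Gbp7 at -1.06 on the log2 scale. Gbp9 at -0.57 ± 0.17 (adjusted p 0.0911) and Irgm2 at -0.50 ± 0.23 (adjusted p 0.31) did not pass, with an upper 95% bound of 0.014 for Irgm2. The median was -1.22 for the 10 genes and -0.01 over all tested. With the choroid plexus covariate 2 calls remained (Gbp2 and Gbp5), while the estimates stayed negative in all 10 genes and the SE was larger. In that fit the interaction was -1.77 ± 0.49 in Gbp3, -1.84 ± 0.43 in Igtp, -1.42 ± 0.31 in Irgm1 and -1.58 ± 0.42 in Gbp6. Without LS replicates 2 and 3 together, or by limma voom on whole fragments, 6 were called.

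**Figure D3:**
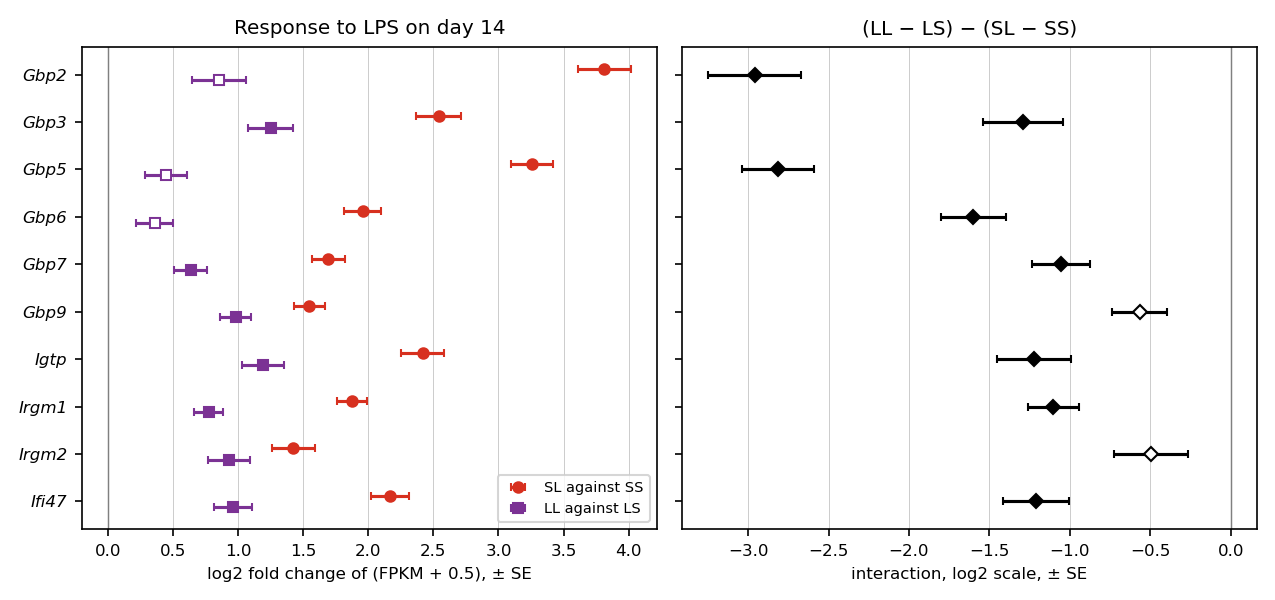
Left, log2 fold change of (FPKM + 0.5) with its SE for SL against SS (circles) and LL against LS (squares), 1 row a gene; right, the interaction with its SE. Open symbols have an adjusted p of 0.05 or more. Circles lie right of squares in every row, from 1.43 to 3.81 against 0.36 to 1.25, and 8 of the 10 interactions are filled.

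On the FPKM scale the share of the gain that was still seen in LL differed from gene to gene. The LL minus LS gain was 4.60% of the SL minus SS gain in Gbp5, 7.48% in Gbp2 and 9.86% in Gbp6. It was 25.4% in Irgm1, 26.9% in Gbp3, 27.0% in Ifi47, 29.2% in Igtp and 30.8% in Gbp7. It was highest in Irgm2 at 42.1% and in Gbp9 at 50.4%. With each library left out in turn the share stayed between 3.32% and 5.88% in Gbp5, 6.24% and 8.93% in Gbp2, and 45.5% and 54.7% in Gbp9. The 3 genes with the largest ratio of SL to SS therefore had the smallest shares in LL. Both axes contain the SL and SS values, and differences between genes were not tested.

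**Figure D4:**
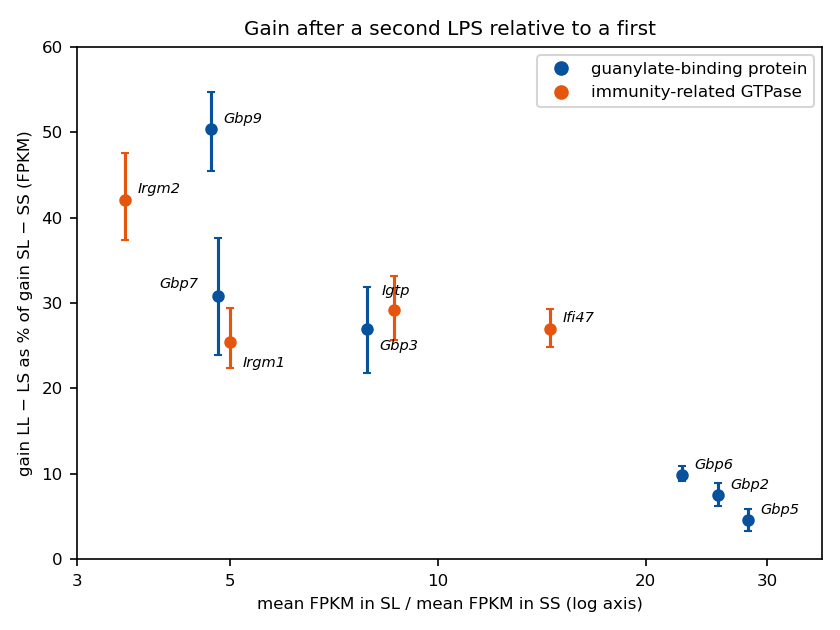
The LL minus LS gain in FPKM as a percentage of the SL minus SS gain (vertical axis) against the ratio of mean FPKM in SL to SS (horizontal log axis), 1 point a gene, with bars for the range when 1 library is left out. Gbp2, Gbp5 and Gbp6 sit at ratios of 25.5, 28.1 and 22.6 with shares of 7.48%, 4.60% and 9.86%, and Gbp9 and Irgm2 at ratios of 4.69 and 3.51 with shares of 50.4% and 42.1%.

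The comparison of LL with SL sets pups given LPS on both days against pups given it on day 14 alone. All 10 genes were lower in LL, where 5.46% of tested genes fell. Gbp6 and Gbp5 are counted here, although they needed their SL libraries to be tested. Gbp5 fell by 2.70 on the log2 scale (adjusted p 2.71e-06), to a mean of 8.86% of the SL level, and Gbp2 fell by 2.66 (adjusted p 1.44e-05), to 12.8%. Gbp6 fell to 14.4%, Ifi47 to 32.1%, Gbp3 to 34.9%, Igtp to 37.4% and Irgm1 to 38.8% of SL. Irgm2 at 50.1%, Gbp7 at 53.1% and Gbp9 at 60.5% were the least reduced. Every LL value lay under every SL value in all 10, against 13.9% of tested genes. This comparison shares the SL animals with SL against SS and the LL animals with LL against LS. The microglial marker sum was higher in LL than in SL, opposite in direction to the 10 genes. Neutrophil, monocyte and astrocyte marker sums were lower in LL, in the same direction. Single astrocyte markers were mixed, with 5 of 9 called lower in LL and 3 called higher. Of 10 microglial markers 7 were called higher in LL and 1 lower. The part of these cell types in the result was not tested. The call of Gbp9 (log2 fold change -0.58, adjusted p 0.0115) ended without LL replicate 1 or SL replicate 2, and with the choroid plexus covariate.

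The comparison of LS with SS gives what was left on day 15 of LPS given on day 3. None of the 10 genes passed the test in limma, where 0.311% of all tested genes did, and none did by limma voom on whole fragments. At an unadjusted p under 0.05 the count was 1, Gbp7. Gbp7 averaged 0.990 ± 0.0764 FPKM in LS and 0.720 ± 0.0818 in SS (SD, n = 3 each), and its log2 difference was 0.29 ± 0.13 with a limma adjusted p of 0.379. The 95% interval of the log2 fold change was -0.32 to 0.17 in Irgm1, -0.28 to 0.25 in Gbp9, -0.69 to 0.03 in Irgm2 and -0.15 to 0.75 in Gbp2. The median was -0.00051 for the 10 genes and 0.0044 over all tested. LS replicates 2 and 3 were low in choroid plexus markers, as given above. With that marker level as a covariate 0 of the 10 were called, but the estimates moved. Irgm2 went from -0.33 ± 0.16 to 0.21 ± 0.23 and Gbp2 from 0.30 ± 0.20 to 0.83 ± 0.33. Gbp3, Igtp and Irgm1 changed sign as well, so the intervals above hold for the main fit only.

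The comparison of LL with SS sets LPS on both days against none. Of the 10 genes, 7 rose, where 2.13% of tested genes rose. Ifi47 is among the 7, although it passed the filter only through SL and LL libraries. Igtp rose by 1.19 ± 0.16 (adjusted p 0.00181), Gbp2 by 1.15 ± 0.20 (adjusted p 0.0105), Gbp3 by 1.14 ± 0.17 (adjusted p 0.00378) and Gbp9 by 0.97 ± 0.12 (adjusted p 0.000935) on the log2 scale. Ifi47 rose by 0.96, Gbp7 by 0.92 and Irgm1 by 0.70. Irgm2 at 0.60 (adjusted p 0.106), Gbp5 at 0.55 (adjusted p 0.122) and Gbp6 at 0.38 (adjusted p 0.269) did not pass, although every LL value exceeded every SS value in all 10 genes, against 10.9% of tested genes. The call of Gbp2 ended without LL replicate 2 or 3 or SS replicate 2, and by limma voom on whole fragments.

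The genes that act upstream of the GTPases were read from a list of interferons and their receptors, 8 of whose 12 genes were tested. In SL against SS 2 rose, Ifngr1 and Il12b. Il12b passed the filter on low values through the SL libraries alone, so it had to be high there to be tested. In the lists that follow the same holds for Nlrc5 among the transducers, Casp4 among the inflammasome genes, and H2-Aa, Nos2 and Ubd among the other targets. Each count in a list stands beside 7.06% of all tested genes that rose in SL against SS, 2.40% that rose in LL against LS and 3.19% with a called negative interaction. Transcripts of the interferons themselves were near the floor of detection. Ifng, the type II interferon, had 2 fragments in LL, 0 in SL, 1 in LS and 0 in SS over the 3 libraries of each group, and Ifnb1, a type I interferon, had 1 fragment in all, in SL. Il12b, a subunit of cytokines that drive interferon gamma production, had 0 fragments in LL, 119 in SL, 1 in LS and 0 in SS. Ifngr1, the ligand-binding chain of the interferon gamma receptor, averaged 6.59 ± 0.222 FPKM in LL, 7.48 ± 1.06 in SL, 5.23 ± 0.335 in LS and 4.71 ± 0.220 in SS (SD, n = 3 each). It rose in SL against SS by 0.61 on the log2 scale (adjusted p 0.000606). Ifngr2, the signalling chain, averaged 20.8 ± 0.604 FPKM in LL, 19.6 ± 0.372 in SL, 20.5 ± 0.408 in LS and 19.1 ± 1.02 in SS and passed no test. T and NK cell markers, the usual sources of interferon gamma, summed to 1.03 to 1.47 FPKM in LL, 0.938 to 1.20 in SL, 0.679 to 1.06 in LS and 0.570 to 1.34 in SS. Of the 10 markers, 8 were under 0.5 FPKM in every library.

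Of the signal transducers and transcription factors, 13 of 15 genes were tested and 10 rose in SL against SS, 5 in LL against LS, and 5 had a negative called interaction. Their median log2 fold change was 0.99 in SL against SS and 0.21 in LL against LS. Irf1, an activator of GTPase promoters, had 2.28, 2.24 and 2.04 FPKM in LL, 4.84, 4.21 and 3.51 in SL, 1.84, 1.56 and 1.76 in LS, and 1.80, 1.53 and 1.19 in SS. It rose by 1.23 ± 0.13 in SL against SS, was at 0.27 in LL against LS (adjusted p 0.385) and had an interaction of -0.95 (adjusted p 0.00971). All LL values of Irf1 exceeded all LS values, by less than the spread within SL.

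Irf9, the DNA-binding subunit of the complex that recognises the ISRE, averaged 3.71 ± 0.270 FPKM in LL, 5.81 ± 0.168 in SL, 2.39 ± 0.0338 in LS and 2.47 ± 0.184 in SS, with an interaction of -0.54 (adjusted p 0.00564). Stat2, its partner, averaged 5.27 ± 0.372 FPKM in LL, 7.50 ± 0.332 in SL, 4.59 ± 0.311 in LS and 4.54 ± 0.166 in SS, with an interaction of -0.49 (adjusted p 0.0105). Irf8, a factor of microglia and other myeloid cells, averaged 1.68 ± 0.124 FPKM in LL, 1.91 ± 0.0993 in SL, 1.03 ± 0.0496 in LS and 0.717 ± 0.0936 in SS. It rose in both day 14 responses, by 0.99 in SL against SS and by 0.51 in LL against LS (adjusted p 0.0121), and its interaction of -0.48 did not pass (adjusted p 0.0561). Irf7, an amplifier of type I interferon, had the largest rise of the list in SL against SS at 3.14 ± 0.17, and rose by 1.68 ± 0.17 in LL against LS, with an interaction of -1.46.

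Of the feedback inhibitors of interferon signalling, 9 of 10 were tested. In SL against SS 6 rose, in LL against LS 3, and the interaction was negative and called in 6. Socs3, an inhibitor of cytokine receptors that signal through STAT3, averaged 2.13 ± 0.960 FPKM in LL, 19.0 ± 3.25 in SL, 0.900 ± 0.216 in LS and 0.759 ± 0.0473 in SS. Usp18, which removes ISG15 and dampens the type I receptor, averaged 1.12 ± 0.294 FPKM in LL, 4.00 ± 1.03 in SL, 0.237 ± 0.0255 in LS and 0.201 ± 0.0948 in SS. Socs1, an inhibitor of interferon gamma signalling that was too low to be tested, was at 0.276 ± 0.166 FPKM in LL, 0.666 ± 0.219 in SL, 0.364 ± 0.0542 in LS and 0.368 ± 0.110 in SS. Ptpn6, a phosphatase of myeloid cells, was the 1 gene of this list that rose in LS against SS, by 0.79 ± 0.09 (adjusted p 0.0103).

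Of the inflammasome and pyroptosis genes that guanylate-binding proteins act with, 10 of 11 were tested. In SL against SS 8 rose, in LL against LS 4, and the interaction was negative and called in 3. Casp4, the mouse caspase-11 that senses LPS in the cytosol, was at 0.292 ± 0.184 FPKM in LL, 0.995 ± 0.323 in SL, 0.137 ± 0.00757 in LS and 0.0566 ± 0.0595 in SS. It passed the filter through the SL libraries alone, so it had to be high there to be tested, and its log2 fold change of 1.41 ± 0.21 in SL against SS is given as a value. Gsdmd, the pore-forming protein it cleaves, averaged 2.26 ± 0.336 FPKM in LL, 2.65 ± 0.344 in SL, 1.36 ± 0.148 in LS and 0.905 ± 0.172 in SS. It rose by 1.17 in SL against SS and by 0.57 in LL against LS (adjusted p 0.0409), and LL against SL did not pass at -0.19 (adjusted p 0.465). Nlrp3, the sensor whose assembly Gbp5 promotes, averaged 0.527 ± 0.0362 FPKM in LL, 2.85 ± 0.0432 in SL, 0.264 ± 0.0182 in LS and 0.245 ± 0.116 in SS, with an interaction of -1.75 (adjusted p 0.000172).

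Of the ubiquitin-like conjugation genes that place the GTPases on membranes, all 15 were tested and 1, Trim21, rose in SL against SS, by 0.97 (adjusted p 0.00312), a share near the background of 7.06%. The median log2 fold change of the list was 0.03 in SL against SS and -0.03 in LL against LS. Of 20 other targets of interferon gamma, 17 were tested. In SL against SS 15 rose with a median of 1.72, in LL against LS 8 with a median of 0.57, and the interaction was negative and called in 13. Cxcl10, a chemokine for T cells, had the largest interaction at -4.64, with 0.973 ± 0.330 FPKM in LL, 31.6 ± 4.99 in SL, 0.110 ± 0.0862 in LS and 0.0345 ± 0.0299 in SS. Its LL level was lower relative to SL than that of any of the 10 GTPases, a difference that was not tested.

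Of 15 other interferon-inducible GTPases, 7 were tested, and all 7 rose in SL against SS with a median log2 fold change of 1.43. Of these, Gbp4, Gm12250, Gm4951, Mx1 and Tgtp1 were under 0.5 FPKM in every LS and SS library. They were tested only because of their LL and SL libraries, so the count of 7 was largely set by the filter. In LL against LS 3 rose, with a median of 0.92. Gbp4 and Tgtp1 are among the 3, so this count was partly set by the filter too. Iigp1, an effector immunity-related GTPase, had the largest log2 fold change of the 7 in SL against SS and the only called interaction. It averaged 2.37 ± 0.571 FPKM in LL, 7.23 ± 0.968 in SL, 0.962 ± 0.169 in LS and 0.977 ± 0.201 in SS, with a log2 fold change of 2.39 in SL against SS and an interaction of -1.43 (adjusted p 0.00403). Mx1, a dynamin-like antiviral GTPase, averaged 0.556 ± 0.152 FPKM in LL, 1.81 ± 0.799 in SL, 0.0542 ± 0.0479 in LS and 0.0646 ± 0.0201 in SS. Tgtp1, whose promoter window shares the GAS and ISRE spacing of Igtp, averaged 0.674 ± 0.218 FPKM in LL, 1.26 ± 0.113 in SL, 0.0886 ± 0.0976 in LS and 0.159 ± 0.108 in SS, and rose in both day 14 responses, by 1.43 and by 0.99 on the log2 scale.

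**Figure D5:**
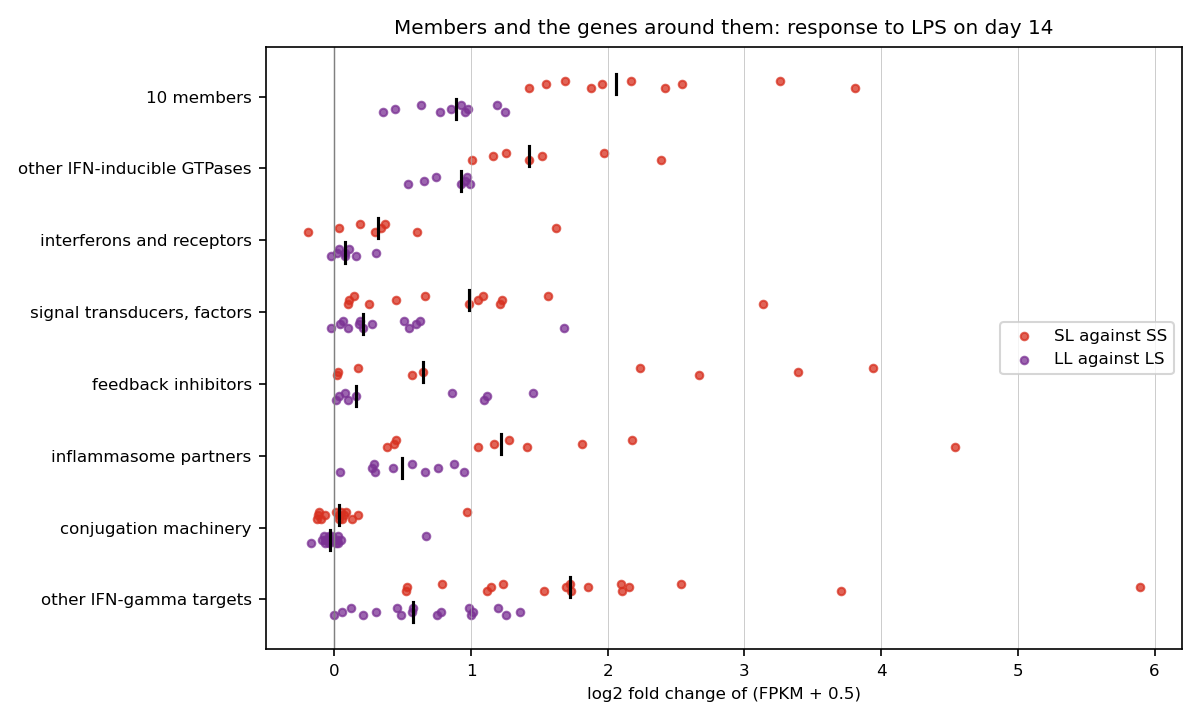
Log2 fold change of (FPKM + 0.5) for each tested gene of the 10 GTPases and of 7 lists around them, in SL against SS (red) and LL against LS (purple), with black bars at the medians. The medians of the 10 GTPases are 2.06 and 0.89, those of the signal transducers 0.99 and 0.21, and that of the conjugation machinery is 0.03 in SL against SS.

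The genes whose pattern across the 12 libraries was most like that of the GTPases were ranked by the root mean square difference between standardized log2 profiles and the mean profile of the 10, in SD units, among 15037 tested genes that reached 1 FPKM in the mean of some group. The nearest was Zbp1, a sensor of Z-form nucleic acid, at 0.0931 SD, with 0.528 ± 0.113 FPKM in LL, 1.81 ± 0.431 in SL, 0.0379 ± 0.0288 in LS and 0.0480 ± 0.0144 in SS. Next came Pilra at 0.0951, C3 at 0.107, Marco at 0.117, Saa3 at 0.118, C5ar1 at 0.120, Ms4a6b at 0.120, Fcgr2b at 0.122, Lcn2 at 0.125 and Plek at 0.127. The 10 GTPases themselves lay at 0.104 (Irgm1) to 0.271 (Gbp5), and the median of the genes compared was 1.43. C3, the central complement protein, averaged 3.49 ± 1.60 FPKM in LL, 61.9 ± 18.4 in SL, 0.510 ± 0.0819 in LS and 0.210 ± 0.0133 in SS. The list holds Zbp1, an interferon target, beside genes that include myeloid receptors and acute-phase genes.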

How the data were processed

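Per the labels, polyA RNA of 12 whole hippocampi was sequenced, 3 animals in each of 4 groups. The authors deposited FPKM values, and the submitters' processing notes list HISAT2 2.0.5, featureCounts 1.5.0-p3 and mm10. The sources used here give no settings for strand or shared fragments. FPKM times gene length gave whole fragments within 0.01 for 100% of the 309337 values above 0. Totals were 16979666 to 24105022 fragments. Replicates differed by more than sampling noise (chi-square per gene 3.59 to 11.5). Genes with at least 0.5 FPKM in 3 libraries (17687, all 10 GTPases among them) were fitted by limma 3.58.1 (R 4.3.3) on log2(FPKM + 0.5), 1 mean per group, mean trend and 8 residual degrees of freedom, two-sided, with Benjamini-Hochberg adjustment over all tested genes within each of 6 comparisons at 0.05. With 3 animals on each side, exact permutation cannot give a two-sided p under 0.1, so none is given. Alternatives were another pseudocount, filter or normalization, the replicate number as a block, fits on the compared groups, limma voom on whole fragments, a choroid plexus covariate and libraries left out. The script was tested on simulated data. The members, gene lists and naming rule were chosen with earlier results of these data known. The rule named all 10 GTPases, up to 4 called genes with the largest changes per list and comparison, 11 fixed pathway genes whatever their values and the 10 most alike genes. Not all genes it allows are described, 1 of the fixed genes is not reported here, and Gsdmd, Tgtp1 and the interferon transcripts were picked after their values were seen. Promoter windows are RefSeq's (GRCm38.p6).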

Additional observations from a re-analysis of the deposited data

Results flagged for a closer look

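The response to LPS on day 14 differed by the first injection in 8 of the 10 GTPases, by the limma test of the interaction, (LL minus LS) minus (SL minus SS), at an adjusted p under 0.05. On the log2 scale it was -2.96 for Gbp2, -2.81 for Gbp5, -1.60 for Gbp6, -1.29 for Gbp3, -1.22 for Igtp, -1.21 for Ifi47, -1.10 for Irgm1 and -1.06 for Gbp7. Among these, Gbp6 and Gbp5 needed their SL libraries to pass the filter. The 18 other called interactions listed here were negative too, in lists that were chosen with earlier results of these data known. Over all 17687 tested genes 564, or 3.19%, had a called negative interaction and 378 a called positive one. Of the other targets of interferon gamma, Cxcl10 was at -4.64, Icam1 at -2.71, Ubd (which passed the filter through SL alone) at -1.70 and Serping1 at -1.53. Among the inflammasome partners, Il1b was at -3.78, Nlrp3 at -1.75 and Rnf213 at -0.86, and the cytokine subunit Il12b, likewise, was at -1.64. Among inhibitors and transducers, Socs3 was at -3.08, Isg15 at -1.93, Usp18 at -1.55, Irf7 at -1.46, Stat3 at -1.37, Ptpn6 at -1.15, Irf1 at -0.95, Irf9 at -0.54 and Stat2 at -0.49. The GTPase Iigp1 was at -1.43. Neutrophil, monocyte and astrocyte marker sums differed between the groups too, and their part in these interactions was not tested.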

How the results depend on the processing

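Of 1339 refitted estimates of single GTPases, 1267 kept their direction and their side of the threshold, 42 lost the call, 7 gained it, 23 that were never called changed sign and 0 reversed a call. In LL against LS, 7 GTPases were called, 0 with the choroid plexus covariate and 1 without LS replicates 2 and 3 together. In the interaction 8 were called and 2 remained with that covariate, whose estimates kept their sign (Igtp -1.84 ± 0.43, Gbp3 -1.77 ± 0.49) with a larger SE. With 1 library left out the counts ranged from 9 to 10 in SL against SS, 5 to 8 in LL against LS, 7 to 8 in the interaction, 8 to 10 in LL against SL, 0 to 0 in LS against SS and 6 to 7 in LL against SS. Without an SL library Gbp6 failed the filter, so that 9 were tested in every comparison, and the cause of the other losses was not tested. The order of the genes by size depends on the pseudocount: with 0.1 FPKM the interaction was -3.52 in Gbp5 and -3.33 in Gbp2. With only the groups compared in the fit, 5 were called in LL against LS.

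Same-numbered replicates of different groups deviated together little (18 pairs, correlations -0.07 to 0.10). This check cannot tell whether they shared a litter or a batch. A fit with the replicate number as a block called 10, 7, 8, 10, 0 and 7 GTPases in the comparisons in the order above. Over all genes the block called 1911, 426, 915, 1542, 41 and 406, against 1915, 470, 942, 1554, 55 and 426 without it. Counts over all genes fell most with the choroid plexus covariate, to 1181 in SL against SS, 32 in LL against LS, 88 in the interaction and 804 in LL against SL. In LS against SS the 55 genes became 0 with only the groups compared, 169 by limma voom and 2 to 203 with 1 library left out. With 1 library left out LL against LS gave 222 to 560, LL against SL 913 to 1611 and LL against SS 278 to 487. With 3 animals a group and few fragments in Gbp6 and Ifi47 under saline, small changes in those genes were not detectable.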

Other observations

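Within a group, the 10 GTPases tended to be low in the same animal. LL replicate 1 was the lowest of the 3 LL libraries in 9 of the 10 genes, and SL replicate 3 was the lowest of the SL libraries in 9. LS replicate 3 was the lowest of the LS libraries in 7. In SS the lowest library was replicate 1 in 2 genes, replicate 2 in 5 and replicate 3 in 3. The same count was not made over all tested genes. A shift of a whole library and one of these genes can therefore not be told apart here.

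Ciita, the activator of MHC class II genes whose main inducer is interferon gamma, was picked after its values were seen. It stood at 0.417 ± 0.0452 FPKM in LL, 0.397 ± 0.0543 in SL, 0.430 ± 0.0353 in LS and 0.368 ± 0.0706 in SS (SD, n = 3 each), and the ranges of all 4 groups overlap. All its values lay under the 0.5 FPKM of the filter, so it was not tested. Of the 17 tested other targets of interferon gamma, 15 rose in SL against SS, where 7.06% of all tested genes rose. Of those 17, 3 passed the filter through the SL libraries alone.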
